A study of Homo sapiens with 2 samples.

Results

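The CEP genes encode centrosomal proteins, and the number in most of their names refers to the approximate mass of the protein. Genes whose symbol starts with CEP and a digit were taken from the probe sets that the array's platform annotation assigns to 1 gene. This gave 38 genes read by 112 probe sets, of 19775 genes and 41091 probe sets with 1 gene on the array. All 38 matched a RefSeq gene of the same symbol through the gene identifier. Of these, 35 genes had at least 1 probe set that passed the signal filter described below, and 89 of the 112 probe sets passed. The 3 genes without a passing probe set were CEP192P1, CEP72-DT and CEP83-DT, a pseudogene and a pair of divergent transcripts. A further 3 probe sets assigned to both CEP170 and CEP170P1 were left out. The genes were picked by name, but the set was proposed with results of these arrays in view, so the same arrays describe it and do not test it.

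RNA came from HEK-293T, an established line of human embryonic kidney cells that carries the SV40 large T antigen. The control cells received a negative control mimic and the other cells a miR-194 mimic, each at 50 nM for 48 h, and each group is represented by 1 Affymetrix array. A mimic is a synthetic RNA duplex that enters the silencing complex in place of a natural microRNA. With 1 array per group, no replicate check and no p-value exist, and the culture, the labelling and the array cannot be told apart from the mimic. In bulk RNA, fewer cells with an mRNA and less of it per cell cannot be told apart either.

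A centrosome is built from a pair of barrel-shaped centrioles, embedded in pericentriolar material that nucleates microtubules through gamma-tubulin. Centrioles are copied in each cell cycle around a cartwheel scaffold under control of the kinase PLK4. The older centriole carries distal and subdistal appendages, and in resting cells it docks to the plasma membrane and forms the base of a primary cilium. Centriolar satellites are small granules around the centrosome that carry its proteins. A microRNA binds mRNAs mainly through the bases of its seed and lowers their stability and translation.

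The mature miR-194 sequences are shown because the seed is the part that pairs with target mRNAs. RefSeq (GRCh38.p14) lists these mature arms, written 5′ to 3′ with bases 2 to 8, the seed, in capitals.
hsa-miR-194-5p: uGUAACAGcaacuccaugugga
hsa-miR-194-3p: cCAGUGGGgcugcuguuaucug
The 5p arm is encoded on the minus strand at chr1:220118206-220118227 (MIR194-1) and at chr11:64891404-64891425 (MIR194-2), and the 3p arm at chr11:64891368-64891389. An mRNA site that pairs with the whole 5p seed reads CUGUUAC. The labels do not say which arm the mimic supplies. Transcript sequences were not used here, so the CEP mRNAs were not searched for this site.

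Values are log2 signals, and each difference is the miR-194 mimic value minus the control mimic value. Signals under the median of their array, 68.6 with the control mimic and 66.8 with the miR-194 mimic on the linear scale, were set to that median. A probe set passed the filter if its average floored signal exceeded the average of both floors, and the brightest passing probe set stood for the gene. For all 35 CEP genes that probe set lay above the floor on both arrays. The value after each ± sign is the probe set error. It comes from the standard deviation of the disagreement between the brightest and next-brightest passing probe sets, over 6456 genes, scaled down to a single probe set. The standard deviation of that disagreement is thus larger than this error. The error is 0.38, 0.31 or 0.27 for low, middle or high signal, and it is not a replicate error.

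CEP mRNAs were lower with the miR-194 mimic or about level, and none was clearly higher. A decrease of at least 1.5-fold was seen in 14 of the 35 genes (40.0%), and an increase of that size in 0. Over all 12769 genes that passed the filter the shares were 7.31% lower and 2.98% higher. At 2-fold, 6 CEP genes were lower and 0 higher, against 1.42% and 0.431% of all genes. Of the 35 differences, 25 lay below 0, and 47.6% of all genes did. This count depends on scaling. After median scaling CEP164 (0.0001), CEP55 (0.013), CEP72 (0.015) and CEP85 (0.037) lay just above 0, and the median over all genes was 0.058. The median log2 difference of the CEP genes was -0.28, and over all genes it was 0.02. Of the 89 passing probe sets, 27 were lower and 1 was higher by 1.5-fold, against 7.99% and 5.08% of all passing probe sets. At 2-fold, 11 were lower and 0 higher, against 1.61% and 0.772%, and 62 lay below 0, against 47.2%. The counts depend on how a gene is summarised. Averaging the probe sets of each gene left 9 of the 35 lower (676 of all 12769 genes), and a floor at the 75th percentile left 9 of 30 (488 of 8131 genes). With no floor and no filter 2 of the 38 genes were higher by 1.5-fold, CEP72-DT and CEP83-DT, both under the floor on both arrays. In that setting 14 of the 38 were lower (36.8%). Of all 19775 genes 17.8% were then lower, and 2607 were higher.

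**Figure D1:**
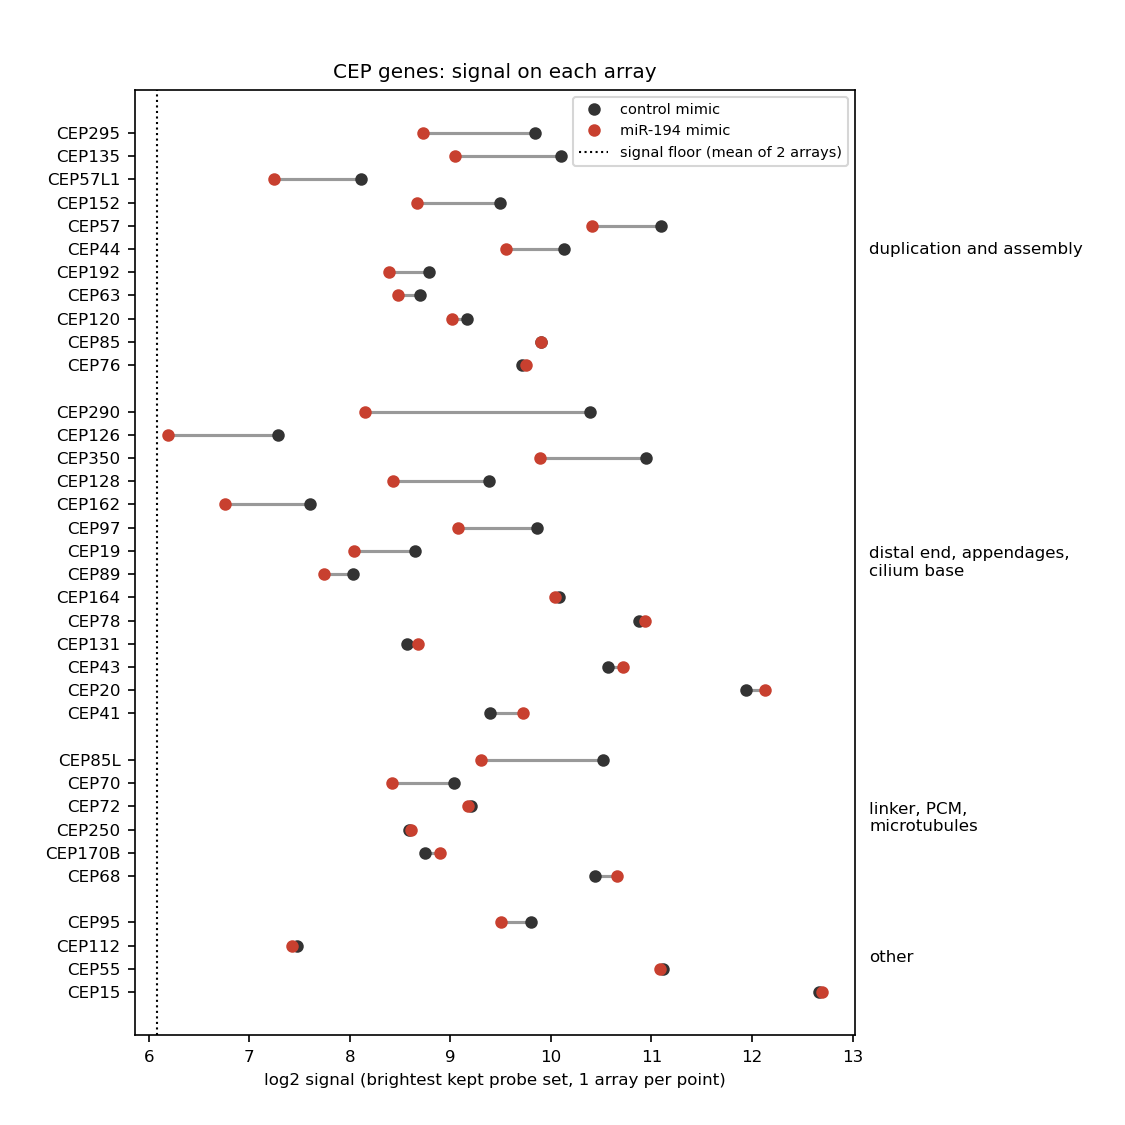
Log2 signal of the brightest passing probe set of each of 35 CEP genes on the control mimic array (dark) and the miR-194 mimic array (red), grouped by role, with the signal floor dotted. The red point lies well to the left for CEP290, CEP295, CEP135, CEP350 and CEP85L, and the points almost coincide for CEP85, CEP72 and CEP55.

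**Figure D2:**
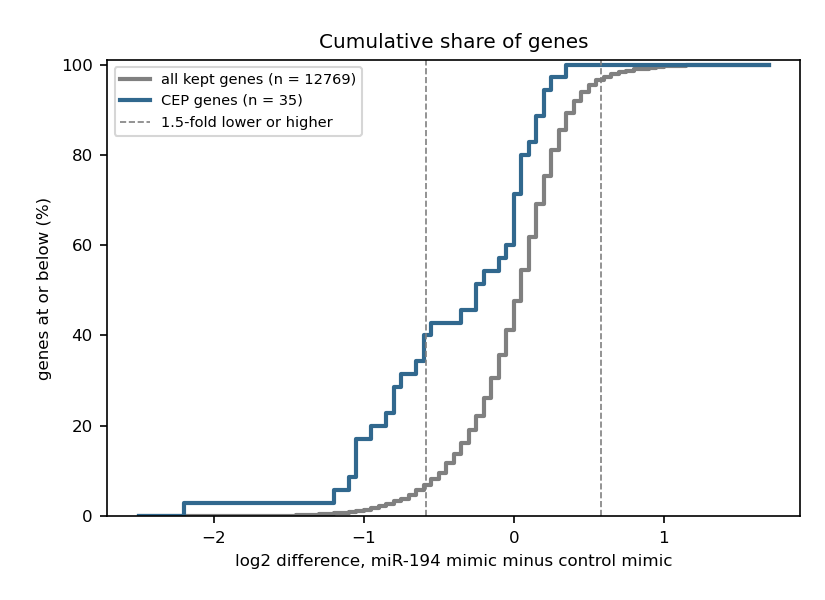
Share of genes (%) at or below each log2 difference, in steps of 0.05, for 35 CEP genes (blue) and all 12769 genes that passed the filter (grey), with 1.5-fold marked by dashed lines. At 1.5-fold lower the CEP curve stands near 40.0% and the curve of all genes near 7.31%, and the CEP curve reaches its top at CEP41.

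Genes of the distal end of the centriole, its appendages and the base of the cilium included CEP290, which had the lowest value of all CEP genes. Of these 14 genes, 7 were lower by 1.5-fold and 0 higher, with a median log2 difference of -0.44. Over all genes the shares were 7.31% lower and 2.98% higher. CEP290, which links microtubules to the membrane in the transition zone of the cilium and is mutated in Joubert syndrome, read 1342 with the control mimic and 285 with the miR-194 mimic. That is a log2 difference of -2.24 ± 0.31, the second lowest of all 12769 genes. Its other passing probe set went from 176 to 77.4 (-1.19), and a further probe set lay under the floor on both arrays. Both passing probe sets of CEP290 are of the type designed on sequence shared between transcripts.

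CEP350, a large microtubule-binding protein that anchors CEP43 at the centriole, read 1976 and 946 (-1.06 ± 0.31). All 4 of its passing probe sets were below 0, from -1.06 to -0.36. CEP43 itself, also known as FOP, stood at 1521 and 1681 (0.14 ± 0.31), and its 4 probe sets ran from -0.17 to 0.14. CEP20, a small protein related to CEP43, was level at 3923 and 4473 (0.19 ± 0.27). CEP19, which is recruited to the mother centriole through CEP350 and CEP43, read 400 and 263 (-0.60 ± 0.38), just past the threshold, and a second probe set stood at -0.14. CEP350 and CEP19 were thus past 1.5-fold on their brightest probe sets and CEP43 and CEP20 were within their error of 0, but the difference between these genes was not tested.

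CEP126, a microtubule-organising protein of the ciliary base, read 155 and 72.9 (-1.09 ± 0.38), close to the floor with miR-194. CEP128, a subdistal appendage protein, read 669 and 344 (-0.96 ± 0.38). Its next probe set agreed, at 227 and 120 (-0.92), while the 3 dimmest lay between -0.14 and 0.15. CEP162, which marks the distal end of the centriole where the axoneme starts, read 194.4 and 108 (-0.84 ± 0.38), with a second probe set at -0.69. CEP97, which with CCP110 caps the distal end and holds back cilium formation, read 932 and 538 (-0.79 ± 0.31). All 3 CEP97 probe sets were below 0, from -1.03 to -0.28.

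The other 7 genes of this group stayed within 1.5-fold. CEP164 and CEP89 are distal appendage proteins needed for docking of the centriole to the membrane. CEP164 read 1085 and 1056 (-0.04 ± 0.31), although its dimmest probe set was at -0.62, and CEP89 was at -0.28 ± 0.38 with 6 probe sets from -0.30 to 0.25. CEP41, which takes part in tubulin glutamylation in cilia, had the highest difference of all CEP genes, 672 and 842 (0.33 ± 0.31), and its second probe set was at -0.03. CEP131, a satellite and cilium protein, was at 0.11 ± 0.38, and CEP78, linked to retinal degeneration with hearing loss, was at 0.06 ± 0.27. CEP128, CEP162 and CEP97 were thus lower while the distal appendage genes CEP164 and CEP89 were not past the threshold, and the difference between them was not tested.

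Genes of centriole duplication and assembly were mostly below 0. Of 11 genes, 10 lay below 0, 5 were lower by 1.5-fold and 0 were higher, with a median of -0.58. The 10 include CEP85, which was level at -0.0016. Over all genes 47.6% lay below 0, 7.31% were lower by 1.5-fold and 2.98% higher. CEP295, which turns a new centriole into one that can recruit pericentriolar material, read 914 and 425 (-1.11 ± 0.31), but its other probe sets were at -0.29 and -0.19. CEP135, a cartwheel and microtubule wall protein, read 1095 and 528 (-1.05 ± 0.31). The other CEP135 probe set was dim, at 62.5 and 82.8, and differed the other way (0.27 after the floor).

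CEP152 is a scaffold that brings PLK4 to the centriole. Its brightest probe set read 718 and 405 (-0.83 ± 0.38), and the others read 153 and 68.3, 114 and 72.6, and 104 and 64.3. All 4 passing probe sets were lower by 1.5-fold or more, from -1.16 to -0.64. CEP63, which forms a complex with CEP152, read 414 and 356 (-0.22 ± 0.38), with a dimmer probe set at 275 and 178 (-0.62). CEP192, the other scaffold that recruits PLK4, had 1 probe set, at 442 and 335 (-0.40 ± 0.38). All 3 scaffold genes were below 0, and CEP152 alone passed 1.5-fold on its brightest probe set.

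CEP57 and its paralogue CEP57L1 organise the inner pericentriolar material that keeps paired centrioles engaged. CEP57L1 read 276 and 152 (-0.86 ± 0.38) with a second probe set at -1.05. CEP57 read 2184 and 1357 (-0.69 ± 0.31), but its other 4 probe sets ran from -0.31 to 0.06. CEP44, which acts in the same conversion step as CEP295, lay just short of the threshold, at 1121 and 750 (-0.58 ± 0.31), and its second probe set went from 605 to 280 (-1.11). The third CEP44 probe set read 138 and 128 (-0.10), and it is the only one left when probe sets of shared sequence are dropped. CEP120, needed for centriole elongation, was at -0.15 ± 0.38. CEP85, a partner of STIL, read 957 and 956 (-0.0016 ± 0.31), and CEP76, which limits repeated duplication, was at 0.05 ± 0.31 with a second probe set at 0.16.

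In the group of the centrosome linker, pericentriolar material and microtubules, 2 of 6 genes were lower by 1.5-fold and 0 were higher, with a median of -0.0011. Over all genes the shares were 7.31% lower and 2.98% higher. CEP85L, a paralogue of CEP85 that is mutated in a disorder of cortical neuron migration, read 1468 and 631 (-1.22 ± 0.31) on its only passing probe set. The paralogues CEP85L and CEP85 thus stood 2.33-fold lower and level. CEP70, a gamma-tubulin binding protein, read 524 and 343 (-0.61 ± 0.38), just past 1.5-fold, and its 5 probe sets ran from -0.61 to 0.46. The linker proteins CEP250 and CEP68, which tether the centrosome's centrioles to each other, were at 384 and 390 (0.02 ± 0.38) and at 1385 and 1616 (0.22 ± 0.31). CEP250 also had the 1 CEP probe set that was higher by 1.5-fold, at 119 and 200 (0.75), and a CEP68 probe set was at -0.44. CEP72, a satellite protein, was at -0.02 ± 0.38, and CEP170B was at 0.15 ± 0.38.

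CEP55 acts at the end of cell division, where it recruits the abscission machinery to the midbody, and its mRNA is known to peak with mitosis. It read 2210 and 2171 (-0.03 ± 0.27) on its single probe set. CEP95, CEP112 and CEP15 are less described. Their differences were -0.29 ± 0.31, -0.06 ± 0.38 and 0.03 ± 0.27, and CEP15 read 6512 and 6648.

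**Figure D3:**
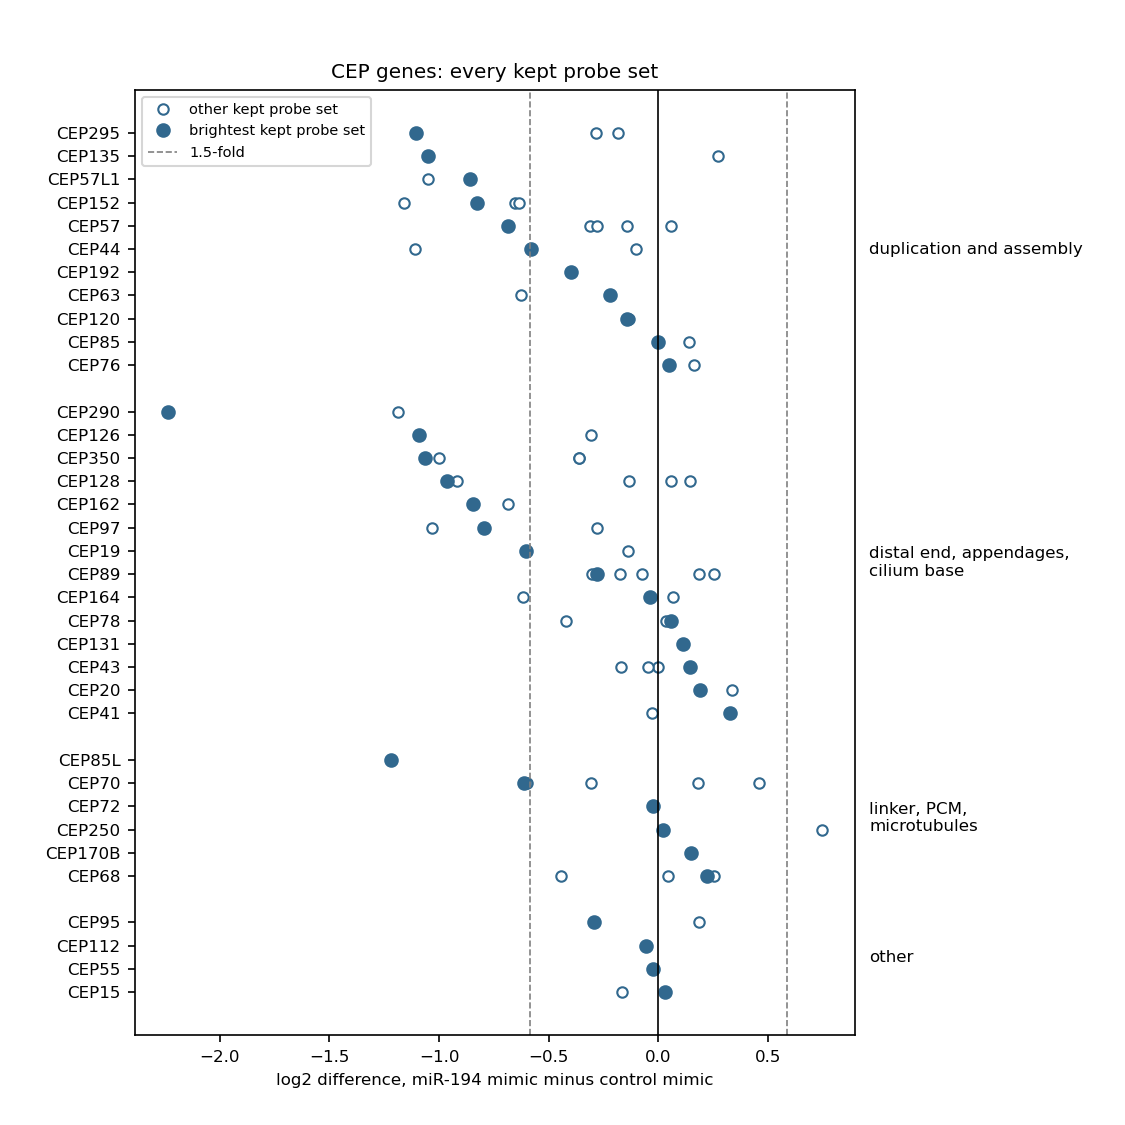
Log2 difference (miR-194 mimic minus control mimic) of all 89 passing CEP probe sets, 1 row per gene grouped by role; the filled point is the brightest probe set, open points are the others, and dashed lines mark 1.5-fold. All points of CEP290, CEP152, CEP57L1, CEP162 and CEP85L lie left of the lower line, while points of CEP135, CEP128 and CEP70 lie on both sides of 0.

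A second reading of the same mRNA was available for 13 of the 14 lower genes, all but CEP85L. The next-brightest passing probe set was below 0 for 12 of the 13, the exception being CEP135, and lower by 1.5-fold for 7. Among all genes that were lower by 1.5-fold and had a second probe set, 78.2% of second probe sets were below 0 and 31.2% were lower by 1.5-fold. These probe sets share the arrays and the RNA, so they repeat the measurement and not the experiment. For 5 genes, CEP290, CEP85L, CEP57L1, CEP162 and CEP152, every passing probe set was lower by 1.5-fold or more. CEP85L has only 1 passing probe set, so it meets this simply by being lower. The matching share of all genes was not computed, so this count has no background to be read against. A further 3 genes, CEP44, CEP63 and CEP164, had a dimmer probe set lower by that size while the brightest was not. Counting genes with any passing probe set lower by 1.5-fold gave 48.6% of CEP genes, against 12.2% of all genes. Averaged over their probe sets, CEP295 (-0.53), CEP135 (-0.39), CEP19 (-0.37), CEP128 (-0.36), CEP57 (-0.27) and CEP70 (-0.18) no longer passed 1.5-fold, and CEP44 (-0.60) did. CEP19 (-0.57) and CEP70 (-0.57) also missed it after median scaling. Both missed it narrowly after quantile normalization (-0.5849 and -0.582), and again with a floor at the 75th percentile (-0.037 and -0.43). Each passed 1.5-fold in 4 of 8 alternatives.

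The CEP genes are long, and the longer ones held the lower values. Genomic length in the RefSeq annotation had a median of 64.3 kb over the 35 genes and 29.8 kb over all genes. Its median was 85.2 kb for the 14 lower genes and 48.0 kb for the other 21. Length and log2 difference had a Spearman's rho of -0.58 across the CEP genes (n = 35) and of -0.22 across all 12755 genes with a length; genes are not independent replicates. In the longest of 5 length classes (over 91.7 kb), 6 of 10 CEP genes were lower by 1.5-fold, against 14.1% of all genes of that class. In the next class (42.3 to 91.7 kb) 7 of 16 were lower, against 9.41%. In the middle class (21.0 to 42.3 kb) 0 of 7 were lower, against 5.64%. Those 7 genes lay between -0.29 (CEP95) and 0.22 (CEP68). CEP19, at 5.97 kb, was the only CEP gene in the shortest class and was lower, as were 3.72% of all genes there. CEP15, at 17.2 kb, was the only CEP gene in the second class and was not, against 3.65%. CEP112, the longest at 557 kb, and CEP63, at 297 kb, were both within 1.5-fold. The share of lower CEP genes was thus above the share of all genes in both long classes, and the part that length plays in the CEP differences was not tested.

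**Figure D4:**
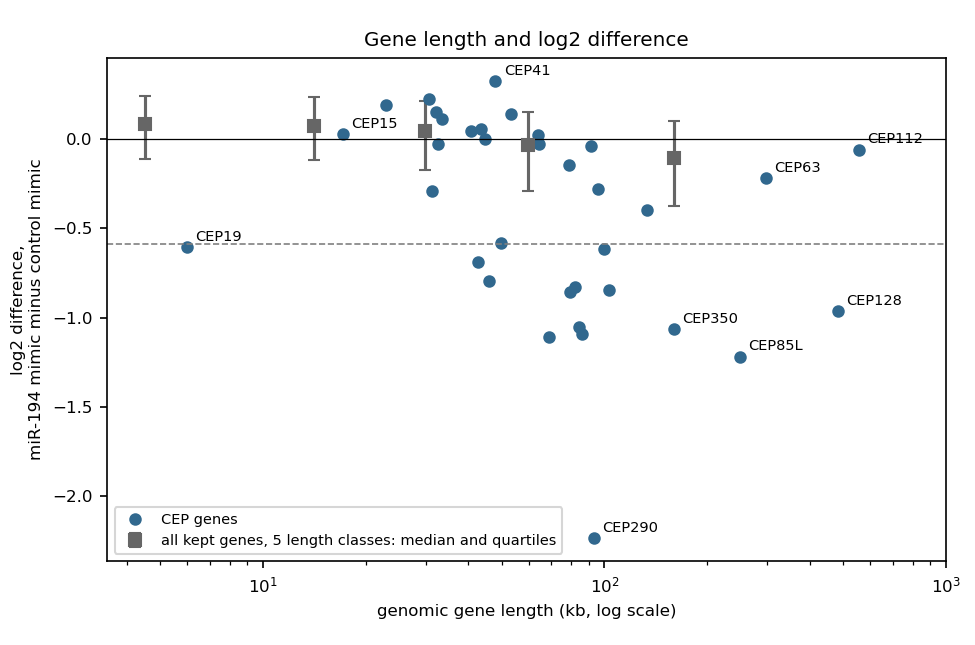
Genomic gene length (kb, log scale) against log2 difference for 35 CEP genes (blue), with the median and quartiles of all genes in 5 length classes (grey squares and bars) and 1.5-fold lower dashed. CEP genes between 42.3 and 91.7 kb fall on both sides of the dashed line, and CEP290 lies far below every other gene shown.

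Signal level was also set beside the counts, in classes split at mean log2 signals of 8.26 and 10.4. The classes of the probe set error are different ones, split at 9.23 and 10.9. In the lowest of 3 signal classes 3 of 5 CEP genes were lower by 1.5-fold, against 8.97% of all genes there. In the middle class 10 of 23 were lower against 8.53%, and in the highest class 1 of 7 (CEP57) against 4.42%. CEP15, CEP20 and CEP55, all in the highest class, were within 1.5-fold.

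Promoter sequence was not used in the choice by name and is given as a description, with no test. RefSeq promoters (GRCh38.p14, 250 bases before to 50 after a start) were found for 31 of the 35 genes, 39 promoters in all. The letters TTTGAA, those of the cell cycle genes homology region (CHR) through which many mitotic genes are known to be held silent outside G2 and mitosis, were searched on both strands. They occurred in 15 of the 39 CEP promoters (38.5%), against 10.5% of the 15197 promoters of all genes that passed the filter and 15.2% of all 35116 promoters. They did not separate the lower genes: 6 of 16 promoters of lower genes (37.5%) and 9 of 23 promoters of the other genes (39.1%) held them. A match is a description of the letters and not a site. Windows of 80 bases from 6 of these promoters are shown, read along the gene's strand, with the matching letters in capitals (TTCAAA where the match is on the other strand). CEP290, CEP152, CEP295 and CEP57 were lower with the miR-194 mimic, and CEP55 and CEP89 were not.
CEP290, chr12:88142173-88142252, minus strand: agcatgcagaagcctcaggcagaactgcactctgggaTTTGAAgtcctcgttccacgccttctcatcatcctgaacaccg
CEP152, chr15:48811206-48811285, minus strand: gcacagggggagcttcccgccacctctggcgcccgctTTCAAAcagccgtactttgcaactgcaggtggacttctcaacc
CEP295, chr11:93661597-93661676, plus strand: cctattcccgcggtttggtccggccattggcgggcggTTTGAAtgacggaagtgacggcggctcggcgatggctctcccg
CEP57, chr11:95789910-95789989, plus strand: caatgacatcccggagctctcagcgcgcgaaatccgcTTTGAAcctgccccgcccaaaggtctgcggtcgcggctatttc
CEP55, chr10:93496459-93496538, plus strand: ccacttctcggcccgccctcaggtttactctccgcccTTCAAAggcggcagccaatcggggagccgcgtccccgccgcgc
CEP89, chr19:32972059-32972138, minus strand: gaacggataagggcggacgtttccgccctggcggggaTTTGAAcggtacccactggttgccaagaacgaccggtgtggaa
The capitals begin 127 bases before the start of CEP290, 179 before that of CEP152, 48 before that of CEP295 and 67 before that of CEP57. They begin 116 bases before the start of CEP55 and 143 before that of CEP89.

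In all, 13 motifs were searched in the same way, on both strands. GTTGCC, part of the X-box of ciliary genes, was in 30.8% of CEP promoters and 12.7% of promoters of all filtered genes. The CCAAT box was in 48.7% and 34.8%, the GC box GGGCGG in 69.2% and 65.2%, and GGAAGT in 30.8% and 25.6%. CCGGAAGT, which contains GGAAGT, was in 7.69% and 7.13%, TTTCCCGC in 5.13% and 2.32%, and TATAAA in 5.13% and 6.56%. The letters TTTGGCGC and TTCGAA were in 0 of the 39 CEP promoters and in 0.934% and 1.59% of the promoters of all filtered genes. The NRF1 site, a longer palindrome around CGCG and the ZNF143 site were also in 0 of the 39, and in 1.92%, 0.704% and 0.401%. For GTTGCC, 6 of 16 promoters of lower genes and 6 of 23 of the other genes held the letters.

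Centrosome genes with other names were read in 4 lists. Together 13 of 62 genes that passed the filter were lower by 1.5-fold (21.0%) and 4 were higher, with a median of -0.18. For this and the counts of each list below, the shares over all genes were 7.31% lower and 2.98% higher, with a median of 0.02. The centriolar satellite list lay lowest: 5 of 12 genes were lower and 1 higher, with a median of -0.53. PCM1, the scaffold on which satellites form, read 1710 and 856 (-0.998 ± 0.31), and 3 of its 5 probe sets were lower by 1.5-fold. CCDC66 was at -0.85 ± 0.31, PIBF1 at -0.84 ± 0.38, CCDC14 at -0.66 ± 0.31 and TEX9 at -0.62 ± 0.38. A dim second CCDC66 probe set was at 0.12. CCDC13, at 70.4 and 140 (0.99 ± 0.38), was close to the floor with the control mimic, and BBS4 was at 0.16 ± 0.31. The other BBS4 probe set went from 786 to 1263 (0.68), past 1.5-fold higher.

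In the duplication list 2 of 14 genes were lower and 1 higher, with a median of -0.13. CCP110, the partner of CEP97, read 1951 and 1145 (-0.77 ± 0.31) on its single probe set. SASS6, which forms the cartwheel that CEP135 stabilises, read 787 and 497 (-0.66 ± 0.31). CPAP, a partner of CEP120 in centriole elongation, was at -0.56 ± 0.31. The kinase PLK4, recruited by CEP152 and CEP192, was at -0.37 ± 0.31, and its 3 probe sets ran from -0.92 to 0.66. CNTROB, a daughter centriole protein, was higher at 356 and 583 (0.71 ± 0.38), and KIAA0753 (0.22 ± 0.31) and POC1A (0.16 ± 0.31) followed.

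In the list of pericentriolar material and gamma-tubulin, 3 of 20 genes were lower and 0 higher, with a median of -0.11. AKAP9, a large scaffold of the centrosome and Golgi, read 1313 and 475 (-1.47 ± 0.31), while its dim probe set was at -0.25. HAUS6, an augmin subunit, was at -0.74 ± 0.27, and NEDD1, which brings gamma-tubulin complexes to the centrosome, was at -0.73 ± 0.27. The gamma-tubulin gene TUBG1 was level at 5893 and 6063 (0.04 ± 0.27), and TUBGCP4 (0.50 ± 0.31), TUBGCP5 (0.34 ± 0.38) and TUBGCP6 (0.27 ± 0.38), subunits of its ring complex, were highest. Each of these 3 had another probe set between -0.43 and -0.33.

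In the list of appendage and linker genes, 3 of 16 were lower and 2 higher, with a median of -0.19. ANKRD26, a distal appendage protein, read 198 and 96.6 (-1.04 ± 0.38), and its other probe set was at -1.31. NIN, a subdistal appendage protein, was at -0.90 ± 0.31, with 5 probe sets from -1.23 to 0.20, and CNTLN, a linker protein that binds CEP250, was at -0.71 ± 0.38, with 4 from -0.71 to 0.40. The linker genes LRRC45, at 219 and 415 (0.92 ± 0.38), and CROCC, at 75.02 and 127 (0.76 ± 0.38), were higher, and another CROCC probe set was at -0.51. ODF2, a subdistal appendage protein, was at 0.29 ± 0.31. Linker genes were thus found on both sides of 0, and CEP250 and CEP68 lay between them.

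**Figure D5:**
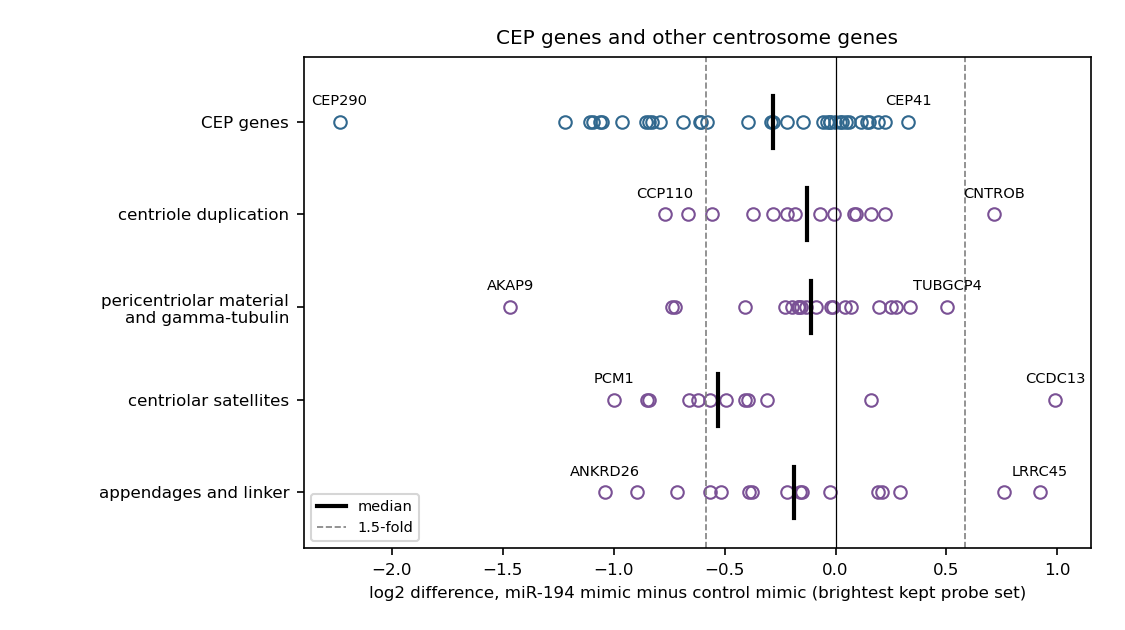
Log2 difference of the brightest passing probe set for 35 CEP genes and 4 lists of other centrosome genes, with medians as black bars, 1.5-fold dashed, and the lowest and highest gene of each row named. The satellite list has its median at -0.53, left of the CEP median of -0.28, and the other 3 medians lie between -0.19 and -0.11.

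The labelled cell type was checked on marker genes. Of 10 genes with a probe set that were analysed as markers of HEK-293T cells, 9 passed the filter and 0 of them differed by 1.5-fold, and SOX11 did not pass. Of 5 markers of multiciliated cells (cells that multiply their centrioles) with a probe set, 2 passed, and no signal of these 5 exceeded 6.32 on the log2 scale. The filter passed 0 of 6 hepatocyte, 1 of 6 enterocyte, 3 of 6 fibroblast and 1 of 4 blood markers, counting only markers with a probe set.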

How the data were processed

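The deposited table holds log2 signals for 54675 probe sets on 2 Affymetrix arrays; the submitters' processing notes name MAS5. Its version, scaling target and log base are unstated there. Raising 2 to the deposited log2 values gave a 2% trimmed mean signal of 500.1 on both arrays. Signals were not rescaled. The platform annotation names several genes for 1801 probe sets, which were left out, and RefSeq (GRCh38.p14) gave lengths, promoters and miRNA sequences. Floor, filter and the choice of the brightest probe set are described above. The steps were run on simulated data with noise below the probe set error, in which all probe sets of a changed gene shifted alike. That setting is easier than these data, so it cannot speak to calls near 1.5-fold. No p-value can be had from 1 array per group, and the number of arrays limits the precision. Thresholds of 1.5-fold and 2-fold describe size. The members and lists were chosen with earlier results of these data known. Named genes are all CEP genes, and of each other list up to 3 genes per direction and those past 1.5-fold. TUBG1 and PLK4 were named after their values were seen. Alternatives were 3 other scalings, 3 other floors, other probe set choices and the 2-fold threshold. Python 3.11.15, pandas 2.3.3 and statsmodels 0.14.6 were used.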

Additional observations from a re-analysis of the deposited data

How the results depend on the processing

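No alternative turned the sign of any of the 14 lower CEP genes that kept a value, and 13 of 268 alternative values of single CEP genes moved by more than their probe set error. Many of the 268 could not move. The brightest probe sets of all 35 genes lay above the floor, so a lower floor or none left their values the same. Median scaling shifted every gene by the same amount, smaller than the error. The low count is therefore no measure of stability. Median scaling, quantile normalization and loess left the counts at 12 to 14 lower genes of 35 and 0 higher. Of all genes 6.34%, 6.74% and 6.81% were then lower, and 453, 425 and 422 were higher. With no floor and no filter 2 of 38 CEP genes and 11 CEP probe sets were higher by 1.5-fold, and 14 CEP genes were lower (36.8%). Of all 19775 genes 17.8% were then lower, against 7.31% in the main setting, and 2607 were higher. The median of the CEP genes was -0.18 in that setting. With a floor at the 25th percentile 1 of 36 genes (CEP83-DT) and 6 probe sets were higher, and 14 genes were lower. Of all 17518 genes 13.5% were then lower, and 1539 were higher. With a floor at the 75th percentile 9 of 30 genes (488 of all 8131) and 11 probe sets were lower and 0 probe sets higher. The medians were then -0.064 (CEP genes), -0.047 (CEP probe sets) and -0.38 (appendages and linker). Without probe sets of shared sequence 11 of 28 CEP genes were lower, against 8.66% of all 9829 genes, and 13 CEP probe sets were lower. The medians were then -0.19 (CEP genes) and -0.38 (appendages and linker), and CEP290, CEP162 and CEP57 had no value. Averaging probe sets left 9 of 35 genes lower (676 of all 12769), with medians of -0.18 (CEP genes), -0.41 (satellites) and -0.011 (appendages and linker). At 2-fold, 6 genes and 11 probe sets were lower and 0 probe sets higher, against 1.42% of all genes and 1.61% of all passing probe sets lower. For the other alternatives the shares of all probe sets were not computed. Beyond the alternatives' own construction, the cause of these changes was not tested. No paired analysis was possible because each group has 1 array. Dim signals near the floor limit CEP126, CEP162 and the weaker CEP152 probe sets. They also limit the dimmer passing probe sets of CEP290 (77.4 with miR-194) and CEP57L1 (75.8 with miR-194).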
